A study of Mus musculus with 12 samples.

Results

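The membrane serine proteases of the epidermis were examined in back skin of mice given imiquimod (IMQ), as 10 genes of the 56923 counted: Tmprss11a, Tmprss11b, Tmprss11d, Tmprss11e, Tmprss11f, Tmprss11g, Tmprss4, St14, Prss8 and Prss27. The family was chosen by name after Tmprss11b had been seen among the largest rises of the WT IMQ against the WT control group. Its members were thus selected with that contrast in view, which is given here as a description, with no p for any member. The skin came from 12 female mice aged 8 to 10 weeks on the C57BL/6 background, in 4 groups of 3. WT littermates received vehicle (WT control) or 5% IMQ cream (WT IMQ) on the shaved back for 6 days, and mice labelled Lcn2-/- received the same vehicle (control labelled Lcn2-/-) or the same cream (IMQ labelled Lcn2-/-). IMQ is a Toll-like receptor agonist whose cream produces psoriasis-like lesions on mouse skin. The sample labels call the genotype a knockdown and the control treatment none, where the study describes a knockout and vehicle cream. The mouse is the replicate, and 3 mice a group limit the precision of every value.

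Libraries held between 16448226 and 28592110 counts, so that 3 counts correspond to between 0.105 and 0.182 CPM, the counts of a gene per 1000000 counts of its library after TMM scaling. Lcn2, the gene named in the label, was counted in every library. It lay at 6.28, 8.64 and 4.57 CPM in WT control, 61.2, 183 and 76.1 in WT IMQ, 10.5, 9.22 and 15.9 in the controls labelled Lcn2-/- and 34.3, 29.9 and 49.8 in the IMQ mice labelled Lcn2-/-. These values go against a full loss of the transcript, and the genotype is therefore given as a label throughout. The protocol text of the labels names retina, but 0 of 5 retina markers exceeded 1 CPM, while all 11 keratinocyte markers did. The 6 hair follicle markers (the hair keratins Krt71, Krt25, Krt27, Krt31 and Krt35, and Lhx2) varied strongly between the control mice. Their summed CPM was 2312, 42.8 and 1305 in WT control and 191, 6835 and 2676 in the controls labelled Lcn2-/-, against at most 58.6 in any IMQ mouse.

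Membrane serine proteases are trypsin-like enzymes held at the cell surface by a transmembrane segment or a lipid anchor, and most are made as inactive zymogens that are cut to become active. In the epidermis, matriptase (St14) and the lipid-anchored prostasin (Prss8) work in a common proteolytic pathway that is needed for the skin barrier and for the processing of profilaggrin, and the Kunitz inhibitors HAI-1 and HAI-2 hold both in check. The Tmprss11 genes encode the HAT/DESC branch, named after human airway trypsin-like protease (HAT, Tmprss11d) and DESC1 (Tmprss11e), which is typical of stratified epithelia. Tmprss4 and marapsin (Prss27) are further epithelial members of the trypsin-like group.

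The 6 Tmprss11 members lie side by side on mouse chromosome 5 (GRCm38), with Tmprss11c, in a cluster from 86231481 to 86745815 that spans 514 kb. All are on the minus strand, in the order Tmprss11c, Tmprss11d, Tmprss11a, Tmprss11g, Tmprss11f, Tmprss11b and Tmprss11e. The other members lie elsewhere: Tmprss4 on chromosome 9 from 45172726 to 45204092, St14 on chromosome 9 from 31089402 to 31131853, Prss8 on chromosome 7 from 127925716 to 127930104 and Prss27 on chromosome 17 from 24038144 to 24045954. All 10 are protein-coding genes. No stretch of 50 bases was shared between the transcripts of any pair of members, so reads of that length or more could be told apart within the family. Tmprss4 shared 11.9% of such stretches with an antisense transcript that had 0 counts, and Prss8 shared 3.85% with the neighbouring Kat8 on the opposite strand, over 122 bp of exon. Whether the counting used strand is not given in the sources used here, so reads on that stretch of Prss8 cannot be told apart from those of Kat8. The same limit holds for the 412 bp of exon that Tmprss4 shares with the antisense transcript. The 0 counts of that transcript do not show how reads there were assigned.

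Promoters of 5 neighbours in the cluster are shown because 4 of these genes (Tmprss11d, Tmprss11a, Tmprss11g and Tmprss11b) were far higher after IMQ and the remaining gene, Tmprss11f, which lies between them, was not. Each runs 5′ to 3′ over 300 bases, 250 before and 50 after the RefSeq start site (GRCm38.p6). Capitals mark the word ACAAGTT on either strand (read as AACTTGT on the other), which was chosen after the promoters had been read.
Tmprss11d, chr5:86373338-86373637, minus strand: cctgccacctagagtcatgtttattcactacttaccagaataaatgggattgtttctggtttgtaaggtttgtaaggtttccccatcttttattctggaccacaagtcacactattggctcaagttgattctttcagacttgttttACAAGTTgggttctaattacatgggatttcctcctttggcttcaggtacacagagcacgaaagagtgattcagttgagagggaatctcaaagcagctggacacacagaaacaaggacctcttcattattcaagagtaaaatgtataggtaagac
Tmprss11a, chr5:86468941-86469240, minus strand: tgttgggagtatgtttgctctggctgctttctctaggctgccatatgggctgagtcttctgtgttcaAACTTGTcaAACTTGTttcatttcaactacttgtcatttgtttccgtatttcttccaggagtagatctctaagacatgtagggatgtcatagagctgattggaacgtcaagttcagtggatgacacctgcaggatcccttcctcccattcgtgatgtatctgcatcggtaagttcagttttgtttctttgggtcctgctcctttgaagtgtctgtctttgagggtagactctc
Tmprss11g, chr5:86518551-86518850, minus strand: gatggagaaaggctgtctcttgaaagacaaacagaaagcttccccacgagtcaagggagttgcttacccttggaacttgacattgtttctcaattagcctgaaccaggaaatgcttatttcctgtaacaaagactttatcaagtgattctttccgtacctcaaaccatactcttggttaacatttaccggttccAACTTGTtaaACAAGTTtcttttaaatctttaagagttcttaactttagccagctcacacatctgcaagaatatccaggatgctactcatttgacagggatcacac
Tmprss11b, chr5:86676249-86676548, minus strand: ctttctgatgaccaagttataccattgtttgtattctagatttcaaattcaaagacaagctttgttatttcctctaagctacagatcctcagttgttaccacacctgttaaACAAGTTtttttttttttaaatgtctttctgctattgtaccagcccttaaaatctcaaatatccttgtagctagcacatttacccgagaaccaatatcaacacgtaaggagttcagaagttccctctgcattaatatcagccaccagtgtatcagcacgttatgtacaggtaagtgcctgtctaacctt
Tmprss11f, chr5:86632375-86632674, minus strand: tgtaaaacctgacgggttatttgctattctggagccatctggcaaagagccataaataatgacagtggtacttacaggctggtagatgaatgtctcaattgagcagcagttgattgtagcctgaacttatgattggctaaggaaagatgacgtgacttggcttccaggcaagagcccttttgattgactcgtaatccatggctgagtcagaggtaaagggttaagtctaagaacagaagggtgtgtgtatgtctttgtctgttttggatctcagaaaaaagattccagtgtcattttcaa

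The word ACAAGTT occurred in 4 of the 6 member promoters at hand. With the start site at 0, matches began at -183 and -174 in Tmprss11a, at -139 in Tmprss11b, at -104 in Tmprss11d and at -56 and -46 in Tmprss11g. Tmprss11f and Prss27 held none. Of 32851 mouse promoters of the same length, 3.05% held it. The same 4 promoters held a p53 family half-site, a degenerate motif that can overlap this word and was present in 8.36% of all promoters; it was also chosen after reading them. The AP-1 motif TGANTCA occurred at -39 in Tmprss11d and at -48 in Tmprss11f (7.81% of all promoters). The STAT motif TTCNNNGAA (8.3% of all) and the letters TATAAA (13.6% of all) occurred in 0 of the 6. Both strands were searched. The windows of Tmprss11e, Tmprss4, St14 and Prss8 were not analysed here.

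To compare levels between members, CPM were divided by the exon length of each gene in kb (RPKM). In WT control skin Prss8 (14.0 ± 1.62, SD, n = 3), St14 (12.02 ± 5.78) and Tmprss4 (11.7 ± 2.74) had the highest levels per length, and their ranges over mice overlapped. Prss27 (5.65 ± 0.801), Tmprss11f (3.46 ± 0.380) and Tmprss11e (2.65 ± 0.548) followed. Tmprss11g, Tmprss11a, Tmprss11d and Tmprss11b were each at or below 0.222 on average. The controls labelled Lcn2-/- had the same leading order, with Prss8 at 19.4 ± 2.96, St14 at 15.6 ± 8.55, Tmprss4 at 11.6 ± 2.45 and Prss27 at 9.19 ± 1.52. Neighbouring ranges overlapped from Prss8 down to Prss27 and between Tmprss11f and Tmprss11e.

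After IMQ the order was led by Prss27 and Tmprss4. Their levels per length were 86.8 ± 20.5 and 65.8 ± 7.05 RPKM in WT IMQ, and 43.2 ± 9.75 and 38.4 ± 13.1 in IMQ labelled Lcn2-/-. The ranges of these leading genes overlapped in both groups (70.9 to 110 against 58.4 to 72.5, and 33.1 to 52.6 against 28.8 to 53.3). Prss8 came next at 21.04 ± 5.01 and 21 ± 2.17, followed by Tmprss11b at 14.6 ± 0.824 and 10.9 ± 4.76. St14 came after them at 9.99 ± 0.445 and 5.97 ± 0.552. The place of St14 depends on the length used. With the longest transcript in place of all exons it stood first in both control groups (25.9 ± 12.4 in WT control and 33.5 ± 18.4 in the controls labelled Lcn2-/-) and, at 21.5 ± 0.957 RPKM, just above Prss8 in WT IMQ. The summed level per length of the 10 members was 49.97 ± 9.38 RPKM in WT control, 221 ± 32.8 in WT IMQ, 66.0 ± 13.3 in the controls labelled Lcn2-/- and 138 ± 26.6 in the IMQ mice labelled Lcn2-/-. St14 made up 23.2% ± 8.96 and 22.6% ± 8.97 of that sum in the control groups and 4.56% ± 0.492 and 4.40% ± 0.531 in the IMQ groups.

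**Figure D1:**
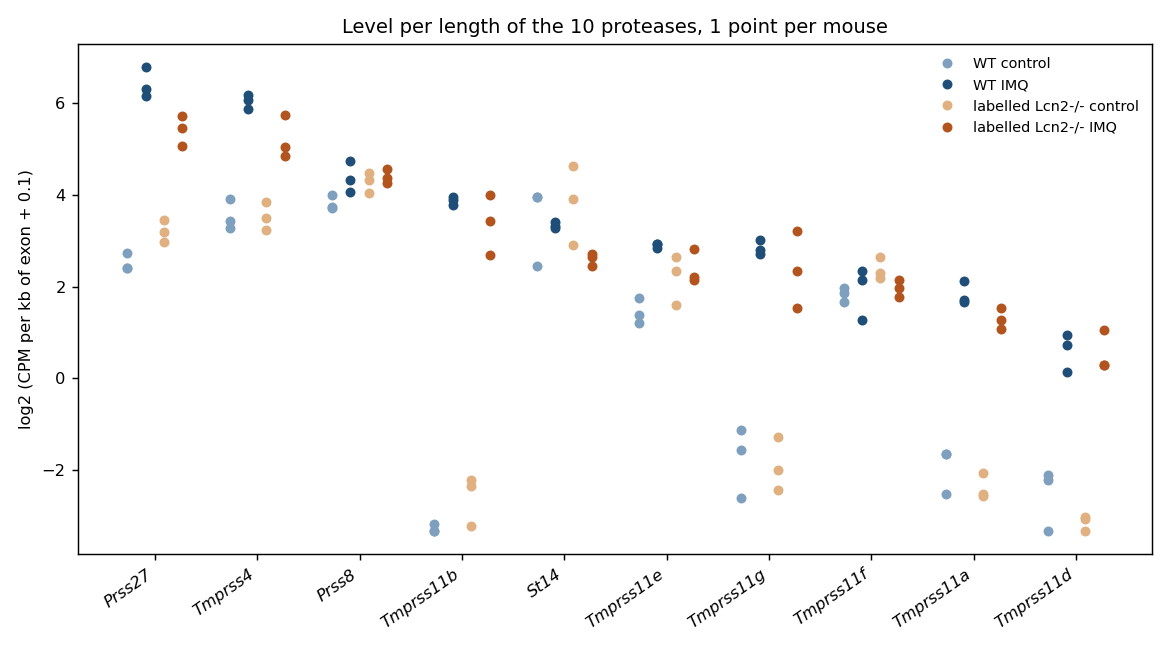
Level per length of each protease, as log2 of CPM per kb of exon plus 0.1, with 1 point per mouse and 4 colours for the groups, ordered from left to right by the mean in WT IMQ. Prss27 and Tmprss4 lead after IMQ, while Tmprss11b, Tmprss11g, Tmprss11a and Tmprss11d are separated from their control mice by wide gaps.

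The IMQ response of the mice labelled Lcn2-/- was tested for the members other than Tmprss11b and Tmprss11d. Its results were known when the family was listed, so the p-values are not independent of that choice. Of these 8 members, 4 rose (Tmprss11a, Tmprss11g, Tmprss4 and Prss27), 1 fell (St14) and 3 did not pass the test (Tmprss11e, Tmprss11f and Prss8), by edgeR's quasi-likelihood test with a Benjamini-Hochberg adjusted p under 0.05 over 18529 genes. Among all genes tested, 14.1% rose and 11.2% fell in this contrast. Control and IMQ mice did not overlap for 4 of the 8 that were higher and 2 that were lower, against 23.1% and 22.8% of all genes. All 10 members passed the filter on low counts, but Tmprss11b and Tmprss11d exceeded its minimum of 0.556 CPM in 0 of 6 control libraries and in 6 of 6 IMQ libraries. They passed it only through the groups in which they were high, and are therefore described without a test. Tmprss11a exceeded it in 3 control libraries and Tmprss11g in 4. In bulk skin, more cells of a type and more RNA per cell cannot be told apart.

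Tmprss11b, which encodes HATL5, had 1, 9 and 9 counts in the controls labelled Lcn2-/- and 724, 452 and 1102 counts in the IMQ mice with this label. In CPM these were 0.0328, 0.480 and 0.402 against 44.2, 26.4 and 66.1. The groups were far apart, and the highest IMQ mouse had 2.5 times the level of the lowest. Tmprss11d, which encodes HAT, was close to absent in the same controls, with 2, 1 and 0 counts, against 90, 54 and 52 counts after IMQ. The ratio of the summed counts, scaled for library size, was 93.3, which rests on few counts in the controls and is imprecise.

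Tmprss11a lay at 0.788, 0.426 and 0.402 CPM in the controls labelled Lcn2-/- and at 13.2, 11.4 and 15.9 CPM after IMQ, a log2 difference of 4.59 (SE 0.383, adjusted p = 2.21e-05). Tmprss11g, next to it, lay at 0.755, 0.426 and 1.56 CPM and at 24.7, 13.9 and 45.8 CPM, a log2 difference of 4.92 (SE 0.603, adjusted p = 0.000307). For both genes the lowest IMQ mouse was several times above the highest control. Tmprss11g spread widely within the IMQ group, and its mouse 3 was the highest, as for Tmprss11b and Tmprss11a.

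The other 2 genes of the cluster moved far less. Tmprss11f, which encodes HATL4, had 32.8, 30.2 and 42.1 CPM in the controls labelled Lcn2-/- and 25.9, 29.2 and 22.7 CPM after IMQ. Its IMQ mice lay just below the controls, with a log2 difference of -0.43 (SE 0.241, adjusted p = 0.21). Tmprss11e, which encodes DESC1, had 10.02, 21.2 and 16.9 CPM in controls and 15.4, 14.7 and 23.6 CPM after IMQ. Its groups overlapped, with a log2 difference of 0.17 (SE 0.267, adjusted p = 0.685). Tmprss11c had 3 counts over all libraries together. Of 6 tested genes within 1 Mb of the cluster, Cenpc1 fell in these mice (log2 difference -0.49, adjusted p = 0.0459), a call that was lost without any single mouse of the contrast, and the others did not pass the test. Their median log2 difference was -0.05. These neighbours were named by position and not by their values.

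**Figure D2:**
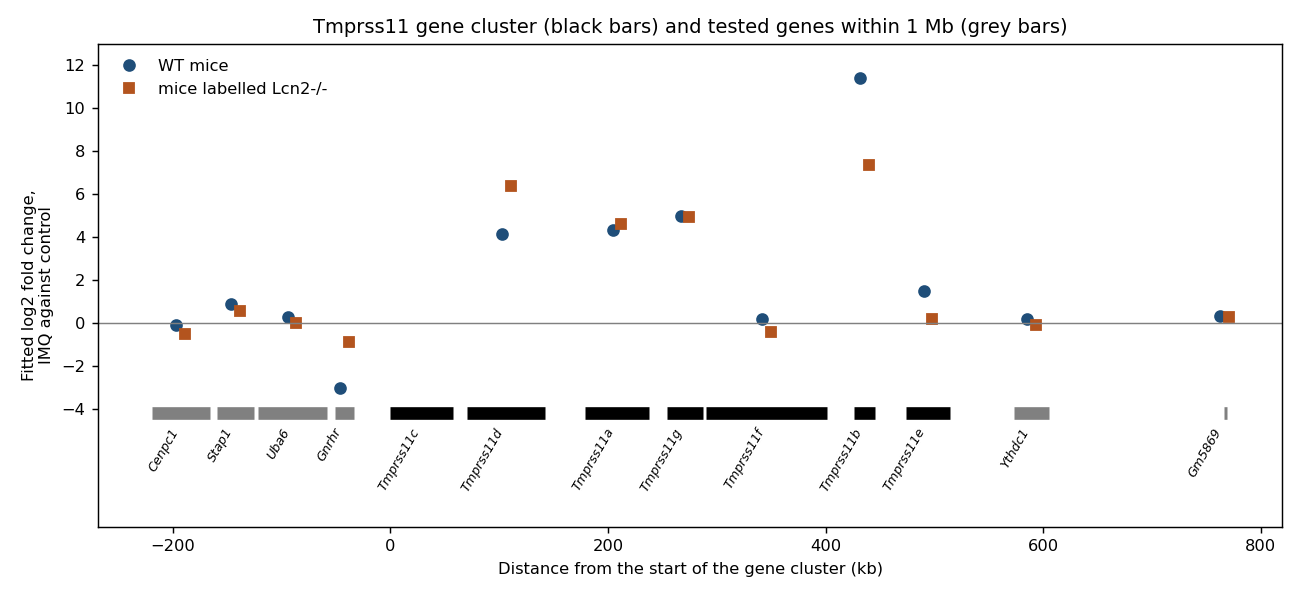
Fitted log2 fold change of IMQ against control (vertical axis) by distance in kb from the start of the Tmprss11 cluster, with circles for WT mice and squares for mice labelled Lcn2-/-. Black bars are the cluster genes and grey bars the 6 tested genes within 1 Mb, and Tmprss11c was not tested. Tmprss11f lies near 0 between Tmprss11g and Tmprss11b, which were both far above it.

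Tmprss4 and Prss27 were already expressed in control skin and rose further. Tmprss4 lay at 29.1, 24.0 and 36.7 CPM in the controls labelled Lcn2-/- and at 138, 74.5 and 85.5 CPM after IMQ, a 3.32-fold difference (log2 1.73, SE 0.247, adjusted p = 0.000747). Prss27 lay at 9.75, 11.2 and 13.5 CPM and at 54.8, 41.5 and 65.9 CPM, a 4.70-fold difference (log2 2.23, SE 0.215, adjusted p = 5.62e-05). Neither gene overlapped between control and IMQ mice. Tmprss11a, Tmprss11g, Tmprss4 and Prss27 were also called in each of the 6 fits that left out 1 of these mice.

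St14 moved in the other direction. It lay at 56.8, 187 and 113 CPM in the controls labelled Lcn2-/- and at 46.9, 40.9 and 49.0 CPM after IMQ. The IMQ mice lay close together, while the controls spread more than 3-fold, and the groups did not overlap. The log2 difference was -1.38 (SE 0.418, adjusted p = 0.032). The call held without control mouse 1 (-1.72, adjusted p = 0.00911) and was lost without any other single mouse of the contrast: control mouse 2 (-0.90, adjusted p = 0.133), control mouse 3 (0.0669), or IMQ mouse 1 (0.0819), 2 (0.101) or 3 (0.0849). Hair follicle markers moved with St14 among the control mice. Their summed CPM in the control mice followed the same order as St14 within each label, lowest in WT control mouse 2 (42.8, with St14 at 40.8 CPM) and in control mouse 1 labelled Lcn2-/- (191, with St14 at 56.8 CPM). This order did not hold among the IMQ mice. In WT IMQ the sums were 14.4, 7.46 and 58.6 CPM, with St14 at 79.9, 75.7 and 73.2 CPM. All 6 hair follicle markers fell after IMQ in mice labelled Lcn2-/- by the same test, with a median log2 difference of -9.41. In WT mice 2 of the 6 fell (median -5.67), while St14 overlapped between control and IMQ mice. The part of these markers in the St14 difference was not tested.

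Prss8, the partner of St14 in the barrier pathway, had 30.2, 41.0 and 36.9 CPM in the controls labelled Lcn2-/- and 43.3, 35.4 and 38.0 CPM after IMQ. Its groups overlapped, with a log2 difference of 0.11 (SE 0.177, adjusted p = 0.679). The ranges of matriptase were thus apart between control and IMQ mice of this label, while those of prostasin were not. The difference between these genes was not itself tested.

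**Figure D3:**
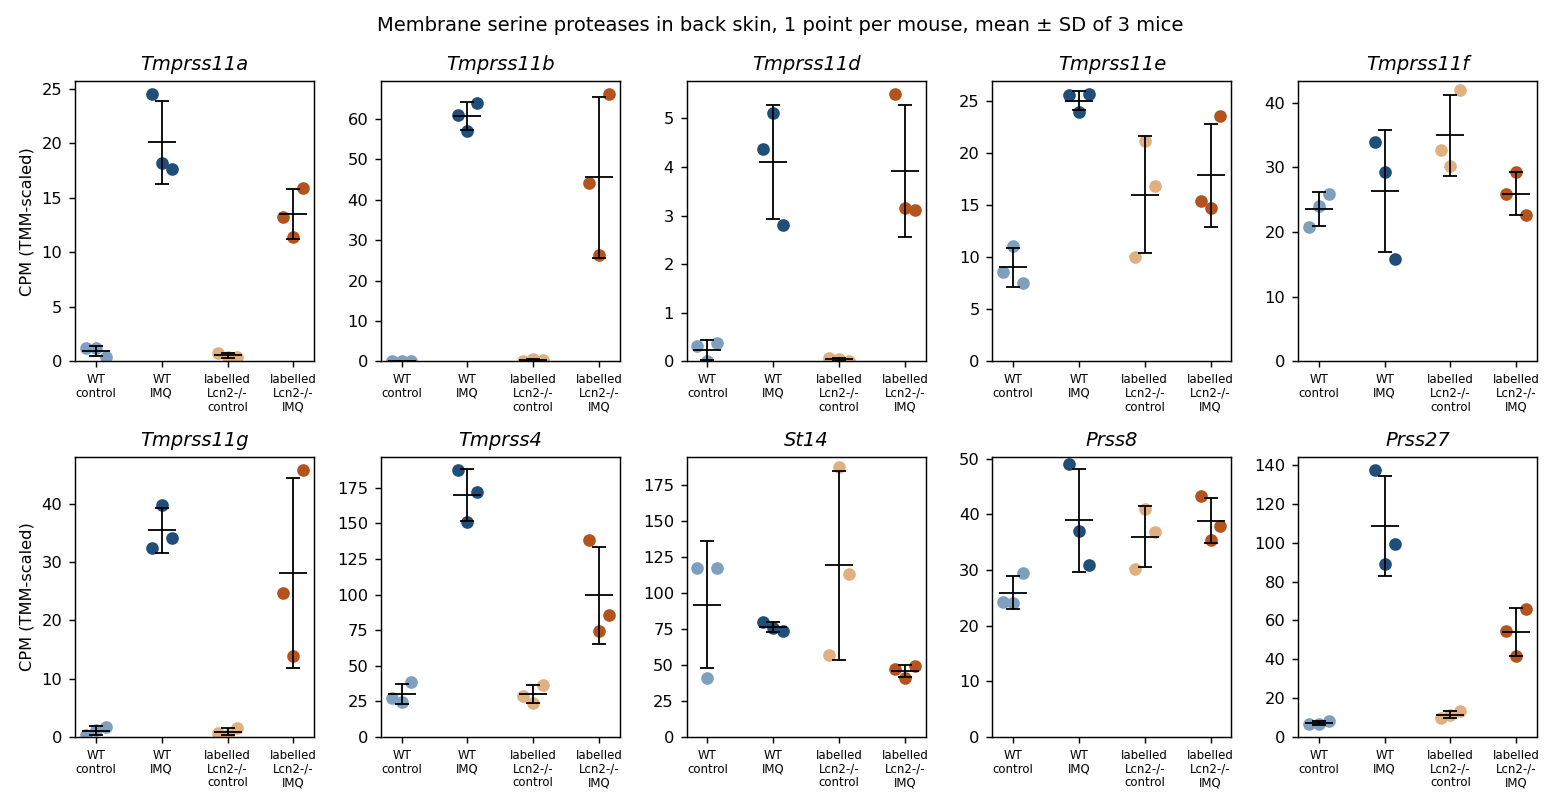
CPM of each protease in the 4 groups, 1 point per mouse, with the mean and SD of 3 mice, on vertical axes that start at 0 and differ between panels. St14 spreads from 40.8 to 117 CPM in WT control and from 56.8 to 187 in the controls labelled Lcn2-/-, while its IMQ groups are tight.

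In WT mice, where Tmprss11b was noticed, members were counted without Tmprss11b and Tmprss11d. Of the other 8, 6 were higher after IMQ at an adjusted p under 0.05 and 0 were lower. Among all genes tested, these shares were 14.2% and 14.3%. The groups did not overlap for 6 of the 8 that were higher and 0 that were lower, against 20.1% and 20.6% of all genes. Since this contrast led to the family, these counts are a description and nothing is read from them. Tmprss11b had 1, 0 and 0 counts in WT control and 1007, 850 and 1321 counts in WT IMQ. The ratio of the summed counts was 3892, which rests on 1 count in the WT controls and is imprecise. Tmprss11d had 7, 0 and 7 counts in WT control and 72, 76 and 58 in WT IMQ.

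Tmprss11a lay at 1.25, 1.25 and 0.425 CPM in WT control and at 24.5, 18.1 and 17.6 CPM in WT IMQ, and Tmprss11g at 0.323, 1.20 and 1.81 CPM and at 32.4, 39.9 and 34.2 CPM. Prss27 lay at 6.52, 6.49 and 8.24 CPM in WT control and at 138, 88.9 and 99.6 CPM in WT IMQ, a 15.4-fold difference. Tmprss4 lay at 27.7, 24.8 and 38.3 CPM and at 188, 151 and 172 CPM, a 5.62-fold difference. The same genes were thus far apart between control and IMQ mice under both labels. Tmprss11e lay at 8.55, 11.1 and 7.497 CPM in WT control and at 25.6, 24.0 and 25.7 CPM in WT IMQ, without overlap. Prss8 lay at 24.3, 24.1 and 29.4 CPM against 49.1, 37.0 and 30.9 CPM, close but without overlap. Tmprss11f (20.7, 24.1 and 25.8 against 34.0, 29.3 and 15.8 CPM) and St14 (117, 40.8 and 117 against 79.9, 75.7 and 73.2 CPM) overlapped between WT control and WT IMQ. For St14 the 3 WT IMQ mice lay between the control mice.

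**Figure D4:**
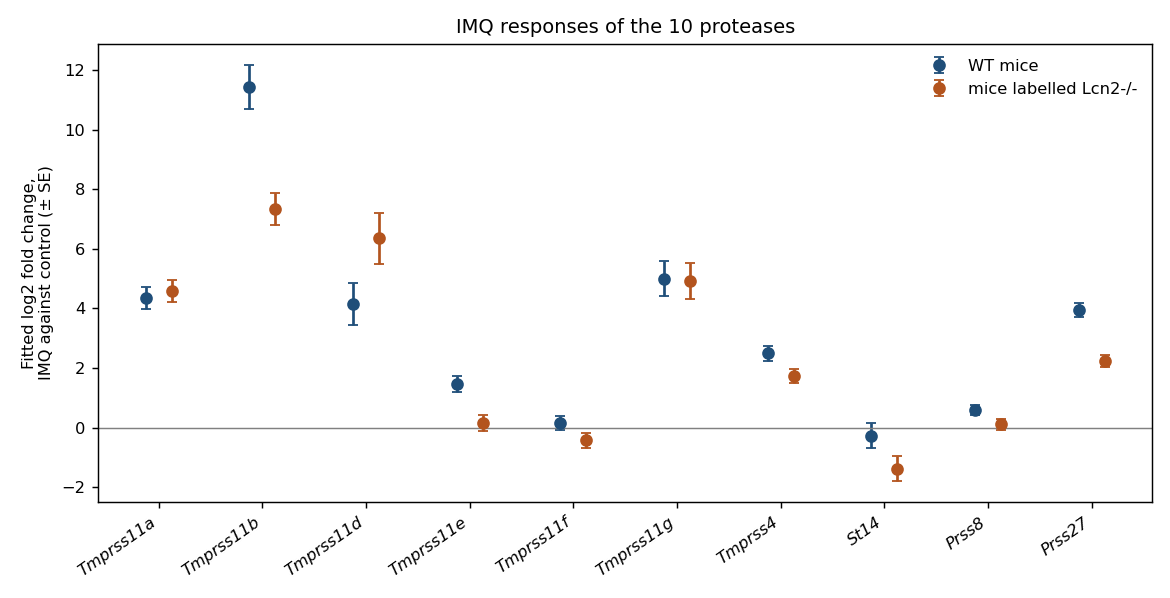
Fitted log2 fold change of IMQ against control for each protease, with SE, in WT mice and in mice labelled Lcn2-/-. Values run from -1.38 for St14 in mice labelled Lcn2-/- to 11.4 for Tmprss11b in WT mice, the latter set by a single read in the WT controls and by the prior count of the fit.

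Whether the label altered the proteases in inflamed skin was asked by comparing IMQ labelled Lcn2-/- with WT IMQ. Prss27 fell, from 138, 88.9 and 99.6 CPM in WT IMQ to 54.8, 41.5 and 65.9 CPM in IMQ labelled Lcn2-/-, which is 2.01-fold lower (log2 -1.01, SE 0.205, adjusted p = 0.0293). Among all genes tested, 2.6% fell and 2.19% rose. The call held without WT IMQ mouse 2 (-1.13, adjusted p = 0.0101) and was lost without any other single mouse: WT IMQ mouse 1 (-0.80, adjusted p = 0.151) or 3 (-1.07, 0.103), or IMQ mouse 1 (-1.01, 0.0747), 2 (-0.84, 0.141) or 3 (-1.17, 0.0584) labelled Lcn2-/-. The other 7 members tested, which leave out Tmprss11b and Tmprss11d, did not pass. All 8 members other than Tmprss11b and Tmprss11d had negative fitted differences, with a median of -0.53 against -0.02 over all genes. Not all of these signs were firm. That of Prss8 was -0.002 and turned positive under 5 of 6 other settings. For Tmprss11f it was -0.020 (SE 0.242), and leaving out 1 mouse gave -0.287 to 0.205.

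Of the other members, Tmprss4 was the closest to the threshold, at 188, 151 and 172 CPM in WT IMQ against 138, 74.5 and 85.5 CPM. The groups did not overlap, with a log2 difference of -0.78 (SE 0.240, adjusted p = 0.077), and DESeq2 gave an adjusted p of 0.028. St14 did not overlap either (79.9, 75.7 and 73.2 against 46.9, 40.9 and 49.0 CPM, log2 difference -0.74, SE 0.414, adjusted p = 0.269), and a fit of the compared mice only gave an adjusted p of 0.0143. The same held for Tmprss11a (log2 difference -0.57, adjusted p = 0.252) and Tmprss11e (-0.49, adjusted p = 0.261). Groups without overlap in this direction were found for 5 members, and for 17.3% of all genes tested (0 members and 16% of all genes in the other direction). Tmprss11b had a fitted difference of -0.41, and its IMQ groups overlapped.

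Whether the response to IMQ differed between the labels was tested as an interaction. The interaction uses the WT mice in which Tmprss11b was noticed, as do the other comparisons between the labels. P-values of these comparisons are thus not independent of that choice. Of the members tested, Prss27 was called, with a response 3.27-fold smaller under the label Lcn2-/- (log2 -1.71, SE 0.297, adjusted p = 0.0249). Among all genes tested, 0.783% had a smaller and 1.37% a larger response. This call was lost without any one of 8 of the 12 mice, with adjusted p then between 0.0501 and 0.0826 (WT control mice 1 and 2, WT IMQ mice 1 and 3, control mice 2 and 3 and IMQ mice 1 and 2 labelled Lcn2-/-), and it held without any of the other 4. The control mice contributed to it, since Prss27 lay at 6.52, 6.49 and 8.24 CPM in WT control and at 9.75, 11.2 and 13.5 CPM in the controls labelled Lcn2-/-. Tmprss11e had the next smallest adjusted p among the members tested, with a log2 difference of responses of -1.30 (SE 0.379, adjusted p = 0.0839). A second rule asked for a more than 2-fold difference at an unadjusted p under 0.05. By it, 2 of the 8 members other than Tmprss11b and Tmprss11d had a smaller response (4.91% of all genes), Prss27 and Tmprss11e. No p is given for Tmprss11b, because it was chosen by the WT mice.

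Keratinocyte markers moved with these genes. The summed CPM of 11 keratinocyte markers was 4965 to 7950 in WT control, 29684 to 39384 in WT IMQ, 5380 to 6754 in the controls labelled Lcn2-/- and 17052 to 28372 in the IMQ mice labelled Lcn2-/-. Of the 11, 9 rose in WT IMQ and 8 in IMQ labelled Lcn2-/- against their controls. Against WT IMQ, 2 were lower in IMQ labelled Lcn2-/-. The sum follows the abundant keratins, above all Krt14. Under the label Lcn2-/- the basal regulator Trp63 did not follow it, with 208 to 282 CPM in controls and 167 to 217 CPM in IMQ mice. In WT mice Trp63 was higher after IMQ without overlap, at 164 to 276 CPM in WT control and 310 to 350 CPM in WT IMQ. Fibroblast markers summed to 5962 to 6603 CPM in WT IMQ and 11564 to 12295 CPM in IMQ labelled Lcn2-/-. The part of these markers in the differences between the IMQ groups was not tested.

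Per 1000 CPM of the keratinocyte markers, Tmprss4 was alike in the 4 groups. It lay at 4.796 ± 0.223 CPM (SD, n = 3) in WT control, 4.83 ± 0.244 in WT IMQ, 4.94 ± 0.829 in the controls labelled Lcn2-/- and 4.66 ± 0.492 in IMQ labelled Lcn2-/-, and all ranges overlapped. Prss27 on this scale was 3.50, 2.99 and 2.68 CPM in WT IMQ and 1.93, 2.28 and 3.86 CPM in IMQ labelled Lcn2-/-, and the groups overlapped. It also overlapped between control and IMQ mice labelled Lcn2-/- (1.81, 1.86 and 2.00 in the controls), but not between WT control (1.07, 1.31 and 1.04) and WT IMQ, where it was higher. Tmprss11a, Tmprss11b, Tmprss11d and Tmprss11g remained higher after IMQ without overlap under both labels. Tmprss11e, Tmprss11f, St14 and Prss8 were lower on this scale after IMQ without overlap under both labels. A gene is lower on this scale when it rises less than the marker sum. In WT mice Tmprss11e and Prss8 were higher in CPM after IMQ and yet lower as this ratio. Between the IMQ groups, Prss8 was higher under the label Lcn2-/- without overlap (1.53, 1.95 and 2.23 against 1.25, 1.25 and 0.829 in WT IMQ). So was Tmprss11d (0.194, 0.174 and 0.183 against 0.111, 0.172 and 0.0755), and the remaining members overlapped. In CPM the means of WT IMQ and IMQ labelled Lcn2-/- were close for Prss8 (39.0 and 38.9) and for Tmprss11d (4.09 and 3.92). The marker sum averaged 35424 and 21200 CPM in these groups, so the higher ratios reflect the lower divisor. These ratios describe the libraries and were not tested.

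**Figure D5:**
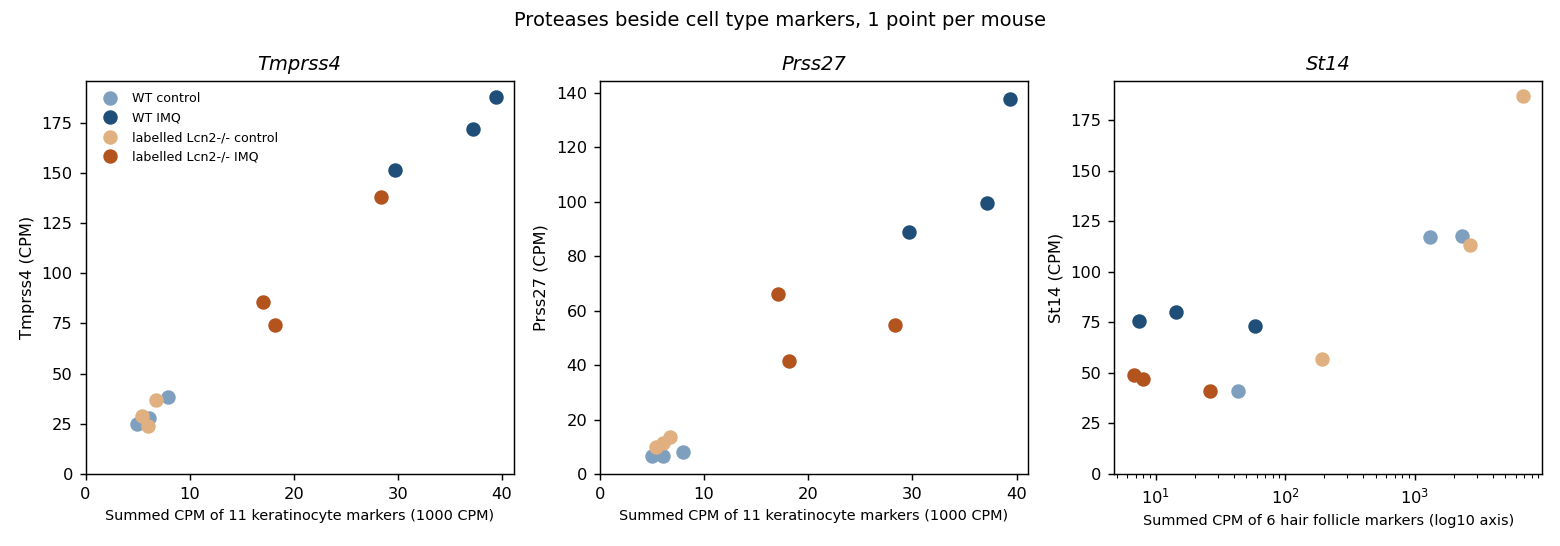
CPM of Tmprss4 and Prss27 against the summed CPM of 11 keratinocyte markers in units of 1000, and CPM of St14 against the summed CPM of 6 hair follicle markers on a log10 axis, with 1 point per mouse. Tmprss4 lies between 3.99 and 5.43 CPM per 1000 CPM of keratinocyte markers in all 12 mice, and St14 is lowest among controls where hair follicle markers are lowest.

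In skin without IMQ, Tmprss11b and Tmprss11d were again left out of the count. Of the other 8 members, 0 differed between the labels by edgeR's quasi-likelihood test at an adjusted p under 0.05. Among all genes tested, 1 gene in each direction did (0.0054%). DESeq2 also called 0 members. At an unadjusted p under 0.05, 4 of the 8 members other than Tmprss11b and Tmprss11d passed, all higher (Tmprss11e, Tmprss11f, Prss8 and Prss27), against 6.6% of all genes in either direction. Tmprss11f, Prss8 and Prss27 were higher in the controls labelled Lcn2-/- without overlap, with log2 differences of 0.57, 0.47 and 0.70 and adjusted p of 0.735, 0.685 and 0.599. Groups without overlap were found for 3 members and 4.19% of all genes in this direction, and for 0 members and 5.18% of all genes in the other. By the rule of a more than 2-fold difference at an unadjusted p under 0.05, 0 of these 8 differed (1.35% of all genes were higher and 0.928% lower). Tmprss11b and Tmprss11d lay near the floor in both control groups and are given by their counts. Tmprss11b had 1, 0 and 0 counts in WT control and 1, 9 and 9 in the controls labelled Lcn2-/-. Tmprss11d had 7, 0 and 7 counts in WT control and 2, 1 and 0 in the controls labelled Lcn2-/-. For both genes the groups overlapped, so no difference between the labels is read from these counts.

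Protease inhibitors were followed as 6 genes, not all of them inhibitors of the members. After IMQ in mice labelled Lcn2-/-, 0 rose and 0 fell by edgeR's quasi-likelihood test, against 14.1% and 11.2% of all genes. Of the 6, 2 had an unadjusted p under 0.05, as did 38.5% of all genes (Serpine2, log2 difference 0.30, and Serpinb6a, 0.50). DESeq2 called 0 of them in this contrast. The median log2 difference was 0.06, against -0.05 over all genes. Spint1, which encodes HAI-1, lay at 32.0, 82.7 and 56.6 CPM in the controls labelled Lcn2-/- and 53.7, 22.3 and 54.6 CPM in WT control, so that the mice with low St14 were also low in Spint1. Its log2 difference after IMQ was -0.36 (adjusted p = 0.49). Spint2, which encodes HAI-2, had a log2 difference of -0.001. Spink5, which encodes LEKTI, an inhibitor of the epidermal kallikreins, rose in WT IMQ (1.02, adjusted p = 0.00109) and was lower in IMQ labelled Lcn2-/- than in WT IMQ (-0.73, SE 0.167, adjusted p = 0.0375), at 361, 291 and 322 CPM against 611, 537 and 468 CPM. The latter call held without WT IMQ mouse 2 and was lost without WT IMQ mouse 1 (-0.63, adjusted p = 0.18) or 3 (0.103), without IMQ mouse 1 (0.0724), 2 (0.16) or 3 (0.0912) labelled Lcn2-/-, and with the replicate number as a block (0.071).

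Of 13 substrates and targets, 5 rose after IMQ in mice labelled Lcn2-/-, 2 fell and 6 did not pass the test, with a median log2 difference of 0.41. The shares of all genes tested that rose and fell were 14.1% and 11.2%. Flg, which encodes profilaggrin, rose from 54.2, 61.0 and 80.4 CPM to 812, 557 and 333 CPM (log2 3.12, adjusted p = 0.00042). The epithelial sodium channel subunits Scnn1g (1.33, adjusted p = 0.00138) and Scnn1a (0.72, adjusted p = 0.0471) rose, as did the kallikreins Klk5 (1.23, adjusted p = 0.00377) and Klk7 (1.06, adjusted p = 0.00301), which shed the horny layer. The call of Scnn1a held without control mouse 2 or IMQ mouse 2 and was lost without any other single mouse of the contrast (adjusted p of up to 0.135). F2rl1, the protease-activated receptor PAR2 that matriptase can activate, fell (-1.12, adjusted p = 0.00558), from 39.5, 73.1 and 50.2 CPM to 28.5, 27.4 and 19.2 CPM. Epcam, an adhesion protein cut by matriptase, fell as well (-1.34, adjusted p = 0.00161), from 120, 141 and 143 CPM to 59.9, 57.7 and 42.0 CPM.

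In WT mice 7 of these 13 genes rose (Flg, Scnn1a, Scnn1b, Scnn1g, Klk5, Klk7 and Cdcp1) and the others did not pass the test. The shares of all genes tested that rose and fell in WT mice were 14.2% and 14.3%. Cdcp1, a membrane protein cut by matriptase, was lower in IMQ labelled Lcn2-/- than in WT IMQ, at 57.1, 56.8 and 65.5 CPM against 141, 110 and 152 CPM (log2 -1.17, SE 0.177, adjusted p = 0.0219). Of the 6 fits that left out 1 of these mice, this call held in that without WT IMQ mouse 2, and the adjusted p was otherwise between 0.0564 (without IMQ mouse 1 labelled Lcn2-/-) and 0.13 (without WT IMQ mouse 1). The response of Cdcp1 to IMQ differed between the labels (-1.62, SE 0.250, adjusted p = 0.0195). That call held without WT control mouse 2 or 3, WT IMQ mouse 2, or control mouse 1 or IMQ mouse 3 labelled Lcn2-/-, and was lost without any one of the other 7 mice, with an adjusted p of up to 0.0748.

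Among 16 other membrane serine proteases, 8 had enough counts to be tested. Tmprss13 (1.16, adjusted p = 0.00364) and Prss22 (1.18, adjusted p = 0.00499) rose after IMQ in mice labelled Lcn2-/-. Corin, which in skin is known from the dermal papilla of the hair follicle, fell (-4.88, adjusted p = 0.00408). For mice labelled Lcn2-/-, 14.1% of all genes tested rose and 11.2% fell. In WT mice 3 rose (Tmprss13, Tmprss2 and Prss22) and 1 fell (Corin), against 14.2% and 14.3% of all genes. The call of Tmprss2 (0.89, adjusted p = 0.038) held without WT control mouse 3 and was lost without any other single WT mouse. Between the IMQ groups 0 of the 8 differed at an adjusted p under 0.05, and Tmprss13 and Prss22 had an unadjusted p under 0.05 (27% of all genes), with log2 differences of -0.54 and -0.75. DESeq2 called 1 of the 8 lower, but the share of all genes that it called is not given here.

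The genes most like 3 members over the 12 libraries were found by the root mean square difference of log2 CPM, each gene centred on its own mean, among 18528 genes. Those nearest to Tmprss11b were S100a9 (0.458), Sprr2d (0.488), Sprr2f (0.511), Sprr2i (0.560) and Sprr2j-ps (0.569), against a spread of 4.09 for Tmprss11b itself. S100a9 encodes a calprotectin subunit, and Sprr2 genes encode precursors of the cornified envelope. Sprr2 genes are near copies of each other, so their separate values are uncertain. The distances from Tmprss11b take in the WT contrast in which it was noticed. Its control libraries held 0 to 9 counts, so its control values depend strongly on the prior count of 2 added before taking logs. This ranking is therefore a description of genes that were low in controls and high after IMQ. The nearest other member was Tmprss11g (1.85), at rank 76. For St14 the nearest genes were Tenm2 (0.112), Epha1 (0.208), Ccdc18 (0.240), Esco2 (0.261) and Vangl2 (0.263), against its own spread of 0.674. For Prss8 they were Mpv17l (0.145), Spns2 (0.165), Cdkn1a (0.167), D430020J02Rik (0.176) and Zfand6 (0.177), against a spread of 0.303. St14 and Prss8 differed from each other by 0.721. The median difference over all genes was 0.784 from St14 and 0.509 from Prss8.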

How the data were processed

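Bulk RNA-seq of back skin from 12 mice in 4 groups of 3 was analysed. The authors deposited raw counts of reads per Ensembl gene for 56923 genes, from paired reads of 150 bp. The labels name HISAT and mm8 without a role, and the counter and annotation are not given in the sources used here. Names and positions came from GENCODE M21 (GRCm38), which held 52073 of the identifiers (91.5%); unmatched identifiers held 0.567% of counts. Promoters came from RefSeq (GRCm38.p6), where 6 of the 10 members matched.

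Counts were scaled by TMM and fitted with edgeR 4.0.16 (quasi-likelihood, robust, filterByExpr with minimum count 10 and minimum total 15) in R 4.3.3, as 4 group means over all 12 mice. Standard errors came from the F statistic. P-values were Benjamini-Hochberg adjusted over 18529 genes, and 0.05 was the threshold. The common biological coefficient of variation was 0.253. DESeq2 1.42.0, other filters, RLE scaling, a block and each mouse left out were alternatives. Scripts were tested on simulated data. RPKM values were computed from the counts and exon lengths. Floors of 3 counts hold for counting error alone, because PCR copies of a molecule could not be told apart. No pair of libraries was a duplicate.

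Members and lists were chosen with earlier results of these data known. All 10 members, the genes of 3 lists (6 inhibitors, 13 substrates and targets, 16 other membrane serine proteases), the 5 genes most like Tmprss11b, St14 and Prss8, and Lcn2 were eligible to be named; the genes near the cluster, marker genes and the listed motif matches came in by position or as markers. Figures were drawn with matplotlib 3.10.9.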

Additional observations from a re-analysis of the deposited data

Results flagged for a closer look

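The response of Prss27 to IMQ stood out because it differed between the labels by the interaction test, with an adjusted p of 0.0249 by edgeR. That call was lost without any one of 8 of the 12 mice and with the replicate number as a block (adjusted p = 0.0541). The test uses the WT mice in which Tmprss11b was noticed, so its p is not independent of the choice of members. Prss27 was 15.4-fold higher after IMQ in WT mice and 4.70-fold higher in mice labelled Lcn2-/-, without overlap between control and IMQ mice under either label. Per 1000 CPM of keratinocyte markers, Prss27 overlapped between the IMQ groups. The groups of 3 mice were too small for a test of single outlying mice.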

How the results depend on the processing

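Over the alternatives, with Tmprss11b and Tmprss11d counted, 598 of 668 fitted log2 differences of members kept their direction and their side of the threshold. Of the others, 34 changed sign, 27 lost and 9 gained a call. With at least 10 counts in every library, 4 members were higher in WT IMQ and 2 in IMQ labelled Lcn2-/- against their controls, because the low Tmprss11 genes were then not tested. In IMQ against control labelled Lcn2-/-, 0 members were lower with no filter (St14, adjusted p = 0.117). DESeq2 and a fit of the compared mice only each called 2 members lower between the IMQ groups. The shares of all genes called by these alternative fits are not given here, so nothing about the members is read from their counts. DESeq2 and the rule of a fold above 2 with an unadjusted p each gave 3 smaller responses in the interaction, Tmprss11b counted. That rule gave 1 higher and 1 lower member between the controls, Tmprss11b and Tmprss11d, both near the floor. For these changes the cause was not tested. With the longest transcript as length, 6 of 10 members kept their rank in each control group, 5 in WT IMQ and 4 in IMQ labelled Lcn2-/-, and St14 moved up because its longest transcript is far shorter than its exon union.

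Replicate numbers are shared between groups, but same-numbered mice did not deviate together (1 of 18 pairs over 0.1, mean correlation -0.0507). With the replicate number as a block, 0 members were lower in IMQ against control labelled Lcn2-/- (St14, adjusted p = 0.0652) and 0 had a smaller response in the interaction (Prss27, adjusted p = 0.0541); among 50 member results the only other change was Prss8 in WT IMQ, which passed the threshold without the block alone.

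With Tmprss11b and Tmprss11d counted, leaving out 1 mouse at a time gave 7 to 8 members higher and 0 lower in WT IMQ, 6 higher and 0 to 1 lower in IMQ against control labelled Lcn2-/-, 0 to 1 lower between the IMQ groups, and 0 to 3 smaller responses in the interaction, 3 without control mouse 1 labelled Lcn2-/-. Without both control mice of low hair follicle signal, a setting chosen after seeing the data, 1 member was lower in WT IMQ (St14, -0.63) and 3 responses were smaller (Prss27, Tmprss11e and St14). These mice also had the lowest St14 under their labels, so leaving them out enlarges its difference by construction. Tmprss11b and Tmprss11d are described without a test, and the shares of all genes called in these fits are not given here. The counts in this paragraph are therefore a description, and nothing about the members is read from them.

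No difference that changed sign was called. For Prss8 between the IMQ groups they were 0.00411 with RLE scaling, 0.00436 with DESeq2, 0.0151 with no filter, 0.00159 with the block and 0.0123 with the compared mice only. For Tmprss4 between the controls they were 0.00155 with RLE scaling and 0.000985 with DESeq2. Leaving out mice gave ranges of -0.0657 to 0.427 for Tmprss11f in WT IMQ, -0.0886 to 0.416 for Tmprss11e and -0.00921 to 0.215 for Prss8 in IMQ against control labelled Lcn2-/-, and between the IMQ groups -0.377 to 0.137 for Tmprss11d, -0.287 to 0.205 for Tmprss11f and -0.147 to 0.198 for Prss8. Between the controls the ranges were -0.836 to 0.253 for Tmprss11g, -0.184 to 0.189 for Tmprss4 and -0.113 to 0.709 for St14, and in the interaction -0.619 to 0.505 for Tmprss11g. With RLE scaling the median of all genes moved by at most 0.0163. Depth limits Tmprss11b and Tmprss11d, which had at most 9 and 7 counts in any control library.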
